A study of Rattus norvegicus with 54 samples.

Results

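Car3, which encodes carbonic anhydrase 3, and Obp3, which encodes odorant binding protein 3, were described in epididymal adipose tissue, liver and gastrocnemius muscle of male Zucker rats. Every probe set that the array annotation gives to these symbols was taken, 2 for Car3 and 2 for Obp3, or 4 of the 15866 probe sets besides controls, and 2 of 10411 genes with a symbol of their own. Both genes were chosen by their measured signal in liver, which was much lower in obese than in lean rats, and Obp3 also by a difference between ligands there. Values from those liver comparisons are therefore given as a description, without tests. The groups were obese fa/fa rats given pioglitazone, obese fa/fa rats given rosiglitazone, obese fa/fa rats given troglitazone, obese fa/fa rats given AG035029, obese fa/fa rats on normal chow without a ligand, and lean fa/+ rats on normal chow. The fa mutation disables the leptin receptor, and the lean rats carry 1 copy of it. All the compounds are ligands of PPARgamma, a nuclear receptor that drives fat cell formation. The thiazolidinediones among them are pioglitazone, rosiglitazone and troglitazone, and AG035029 is known here by its code name. Doses, treatment times and ages are not stated in the labels, so equal exposure to the ligands cannot be assumed. Each tissue and group had 3 Affymetrix Rat Expression 230A arrays, 54 in all, and each array held RNA pooled from 2 rats.

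Carbonic anhydrases interconvert carbon dioxide and bicarbonate. Carbonic anhydrase 3 is a cytosolic member with weak hydratase activity that is abundant in adipocytes, slow muscle fibres and male rat liver. Obp3 is a lipocalin, a small secreted carrier of hydrophobic molecules. It belongs to the rat alpha-2u globulins, which male liver secretes, which the kidney filters into urine and which carry pheromones. In rat liver both proteins are known as male-biased and as dependent on the pattern of growth hormone release.

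Signals are MAS5 intensities that the authors had scaled so that every array had the same trimmed mean. The median signal of an array ranged over 205.3 to 247.6 for adipose tissue, 200.8 to 248.4 for liver and 190.8 to 232.5 for muscle. The 9 measured hepatocyte markers summed to between 225100 and 383800 on the liver arrays and to at most 10160 elsewhere. The 7 measured adipocyte markers summed to between 37690 and 58610 in adipose tissue and to at most 1245 in liver, and the 10 fast fibre markers to between 294200 and 543800 in muscle. Log2 differences are on the scale log2(signal + 20), errors after ± are standard errors from limma unless an SD is named, and a call is a limma p, adjusted over the 9519 probe sets tested in the tissue, under 0.05. Each group had 3 arrays, and the ligand mean, taken over the 4 ligand groups with equal weight, had 12. The p-values measure the spread between pools, and 3 arrays a group limit the precision.

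Car3 lies on chromosome 2 at 88491666 to 88501299 in the RefSeq annotation of GRCr8. In liver its signal was several-fold lower in all obese groups than in lean rats, and no ligand group came near the lean level. On probe set 1367896_at the untreated obese arrays read 3050, 5485 and 3887, against 23532, 27229 and 26770 in lean rats. On 1386977_at the untreated obese arrays read 412, 833 and 408, against 7661, 7135 and 7117 in lean rats. Untreated obese and lean arrays did not overlap on either probe set. The log2 differences, obese minus lean, were -2.67 ± 0.36 and -3.76 ± 0.42, or 6.39-fold and 13.6-fold lower in untreated obese rats. Ordered by size of fall among the 9519 probe sets tested in liver, 1386977_at came 1st and 1367896_at came 7th. Of all tested probe sets 0.672% were called in this comparison, and 7.19% had untreated obese arrays that all lay below the lean arrays. In whole tissue, fewer cells of a type and less RNA per cell cannot be told apart. The 9 hepatocyte markers summed to between 350600 and 383800 in untreated obese liver and to between 341000 and 355100 in lean liver.

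**Figure D1:**
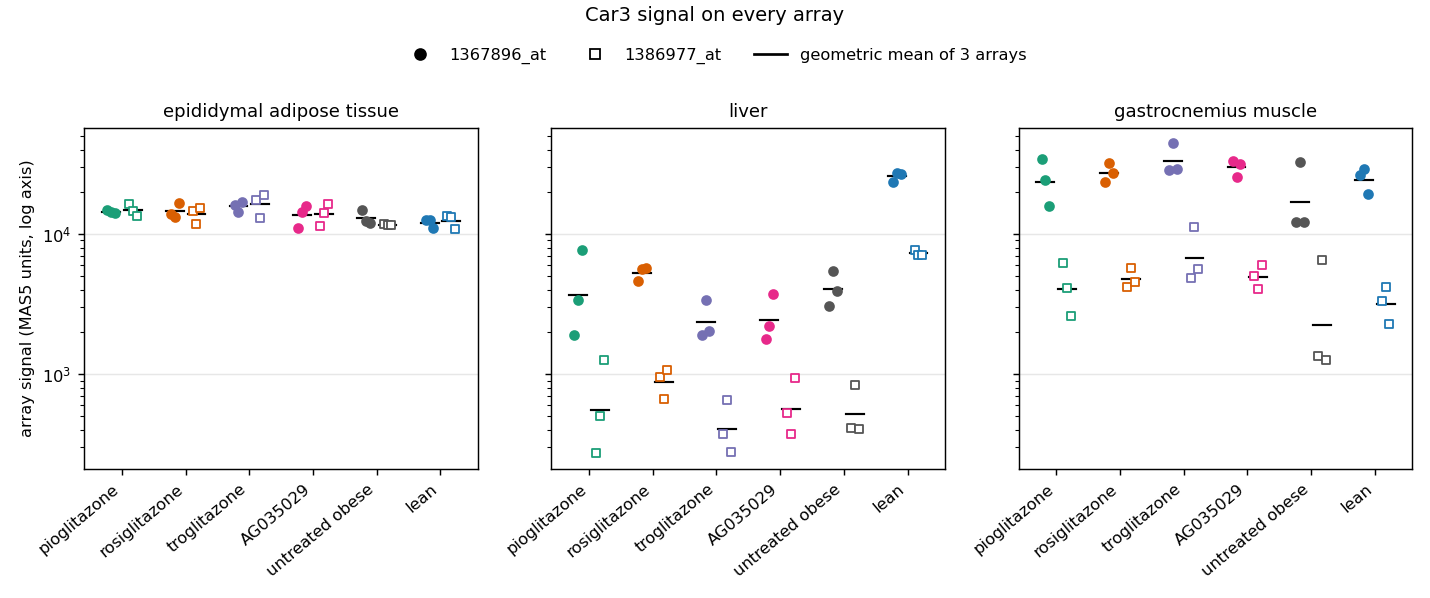
Car3 signal on each of the 54 arrays, by tissue and group, on a log axis in MAS5 units. Filled circles are 1367896_at, open squares are 1386977_at and short lines are geometric means of 3 arrays. Within each probe set the lean liver arrays stand above all obese liver arrays, while adipose arrays lie between 10904 and 18949 in every group.

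Car3 in the ligand groups overlapped untreated obese liver, with some arrays below and some above its range. On 1367896_at the pioglitazone arrays read 1907, 3399 and 7683 and the rosiglitazone arrays 4651, 5619 and 5687. The troglitazone arrays read 1901, 3405 and 2036 and the AG035029 arrays 1778, 2219 and 3731. Each ligand group overlapped the untreated obese arrays, and the highest ligand array, 7683, lay below the lowest lean array, 23532. The log2 differences from untreated obese rats were -0.13 for pioglitazone, 0.40 for rosiglitazone, -0.76 for troglitazone and -0.71 for AG035029, each ± 0.36. On 1386977_at they were 0.11, 0.74, -0.33 and 0.13 in the same order, each ± 0.42, and again every ligand group overlapped the untreated obese arrays.

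The differences between ligands were not used to choose Car3 and were tested. Ordered by mean signal on 1367896_at, lean rats (25844) were followed by rosiglitazone (5318.9), pioglitazone (4329.7), untreated obese rats (4140.6), AG035029 (2576) and troglitazone (2447.4), and among the obese groups all neighbours in this order overlapped. Rosiglitazone arrays lay above all troglitazone arrays on both probe sets and above all AG035029 arrays on 1367896_at. Of all tested probe sets, 4.76% had rosiglitazone arrays all above those of troglitazone and 6% all above those of AG035029. The log2 difference was 1.16 for rosiglitazone minus troglitazone (95% interval 0.41 to 1.90, limma adjusted p = 0.619) and 1.11 for rosiglitazone minus AG035029 (0.36 to 1.85, adjusted p = 0.4535). On 1386977_at they were 1.07 (0.20 to 1.94, adjusted p = 0.8539) and 0.61 (-0.26 to 1.49, adjusted p = 0.7823). Neither probe set was called in any of the 6 differences between ligands, where 0% to 0.021% of all tested probe sets were, nor in the F-test among the 4 ligands (adjusted p = 0.6473 and 0.9031). The limma p on 1367896_at before adjustment was 0.00408 for rosiglitazone minus troglitazone, 0.005717 for rosiglitazone minus AG035029 and 0.01235 for the F-test. Adjusted over the 6 pairs of this probe set alone, the first 2 limma p-values were 0.01715 each. On 1386977_at the limma p before adjustment was 0.01894, 0.1606 and 0.1196 in the same order. Adjusted over the 6 pairs of 1386977_at alone, the first 2 were 0.1136 and 0.3212, higher than on 1367896_at. The F-test called 0.0105% of the probe sets. The intervals include differences of more than 2-fold for rosiglitazone against troglitazone on both probe sets.

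Obp3 lies on chromosome 5 at 79637234 to 79640810 in GRCr8, within a cluster of near-copies. RefSeq lists 5 transcripts of Obp3, and the start used for its promoter window, at 79640675, lies 135 bases inside the outer end of the gene. The window from 250 bases before to 50 bases after that start was compared with 33468 other such windows from RefSeq. Of these, 7 were at least 80% identical over 200 or more aligned bases, all 7 on chromosome 5, with 91.5% to 97.2% identity. They belong to Mup4, Mup5, Mup4l1, Mup4l3, Mup4l4 and a pair of genes that have only locus names. The windows of Obp3, at chr5:79640626-79640925, and Mup5, at chr5:79999646-79999945, both on the minus strand of GRCr8, are shown because the array measures both genes and because near-identical copies can share probes. Capitals mark AGAACA, the core letters of steroid receptor sites, and TATAAA, the TATA box.
Obp3: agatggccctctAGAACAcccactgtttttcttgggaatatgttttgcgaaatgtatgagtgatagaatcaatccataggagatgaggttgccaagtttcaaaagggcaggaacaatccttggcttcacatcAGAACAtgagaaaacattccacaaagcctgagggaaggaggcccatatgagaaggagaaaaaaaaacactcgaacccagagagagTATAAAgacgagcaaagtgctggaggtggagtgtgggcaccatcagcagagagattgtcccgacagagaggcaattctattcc
Mup5: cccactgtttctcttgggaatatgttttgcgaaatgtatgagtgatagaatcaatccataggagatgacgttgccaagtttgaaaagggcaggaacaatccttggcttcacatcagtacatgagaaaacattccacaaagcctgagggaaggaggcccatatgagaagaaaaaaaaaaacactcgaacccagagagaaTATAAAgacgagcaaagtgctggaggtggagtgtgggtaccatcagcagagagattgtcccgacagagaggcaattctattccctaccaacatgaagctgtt
The Obp3 window holds AGAACA at 238 and 118 bases before that start and TATAAA at 33 bases before it. The Mup5 window, aligned over 282 bases with 274 identical, holds TATAAA at -52 relative to its own start, and no AGAACA. It begins just after the place of the first Obp3 AGAACA, so whether Mup5 has that site is not shown. At the place of the second it reads AGTACA. On either strand AGAACA occurred in 20.7% and TATAAA in 14.2% of the 33469 windows. The letters TTCNNNGAA (STAT5, in 8.87% of windows), AGGTCA (core letters of nuclear receptor sites, 16.2%) and CCAAT (37.5%) were in neither window. Such matches are letters in a window and do not show binding.

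In liver the Obp3 signal was lower in untreated obese than in lean rats, and lower again in rats given pioglitazone, troglitazone or AG035029, but not in those given rosiglitazone. On 1387985_a_at the pioglitazone arrays read 163, 347 and 712, the troglitazone arrays 445, 977 and 195, and the AG035029 arrays 185, 124 and 414. The rosiglitazone arrays read 2020, 2300 and 3925, within and around the 2241, 3064 and 3440 of untreated obese rats, against 10286, 17898 and 13452 in lean rats. The arrays thus fell into separate ranges, with lean rats highest, rosiglitazone and untreated obese rats overlapping in the middle, and the other ligands lowest. The log2 difference, untreated obese minus lean, was -2.23 ± 0.49, or 4.69-fold lower in untreated obese rats, and this was the 13th largest fall of all tested probe sets. Against untreated obese rats the log2 differences were -2.98 for pioglitazone, -0.12 for rosiglitazone, -2.64 for troglitazone and -3.63 for AG035029, each ± 0.49. These correspond to 7.89-fold, 1.09-fold, 6.24-fold and 12.3-fold lower signals. Rosiglitazone arrays all lay above those of the other ligands, by 2.86 to 3.50 on the log2 scale against pioglitazone and AG035029 and by 2.52 against troglitazone.

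**Figure D2:**
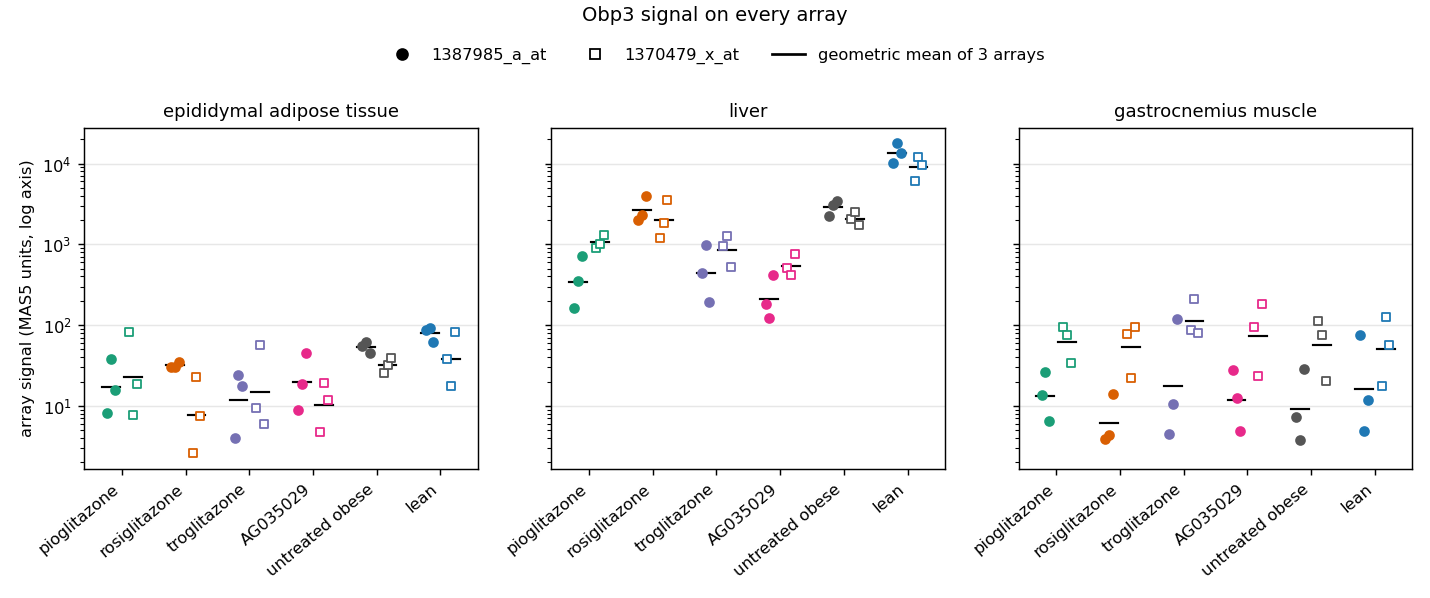
Obp3 signal on each of the 54 arrays, by tissue and group, on a log axis in MAS5 units, with geometric means of 3 arrays as short lines. In liver the pioglitazone, troglitazone and AG035029 arrays of 1387985_a_at (filled circles) lie between 124 and 977, and in adipose tissue and muscle both probe sets lie at or below 208.

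The second Obp3 probe set, 1370479_x_at, also placed lean rats highest and AG035029 lowest, with smaller ligand differences. In the array maker's naming, the letter x marks a probe set with probes that can also match other transcripts, and the letter a one that can match several related transcripts. The pioglitazone arrays read 895, 1008 and 1304, the rosiglitazone arrays 1189, 1844 and 3556, the troglitazone arrays 956, 1268 and 519, and the AG035029 arrays 507, 415 and 752. Untreated obese rats read 2035, 2530 and 1756, against 6089, 12166 and 9612 in lean rats. Untreated obese minus lean was -2.09 ± 0.35, which was the 18th largest fall. Against untreated obese rats the differences were -0.97 for pioglitazone, -0.07 for rosiglitazone, -1.26 for troglitazone and -1.91 for AG035029, each ± 0.35. AG035029 arrays lay below all rosiglitazone arrays by 1.84 on average, while the pioglitazone and troglitazone arrays overlapped those of rosiglitazone. In ligand comparisons with untreated obese liver, 6.48% of all tested probe sets had pioglitazone arrays all below the untreated obese arrays, 5.83% rosiglitazone arrays, 8.16% troglitazone arrays and 6.84% AG035029 arrays. Between ligands, 4.88% had pioglitazone arrays all below those of rosiglitazone, and 6.2% had pioglitazone arrays all above those of AG035029, as on this probe set. The comparisons with each ligand and with lean rats share the untreated obese arrays.

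**Figure D3:**
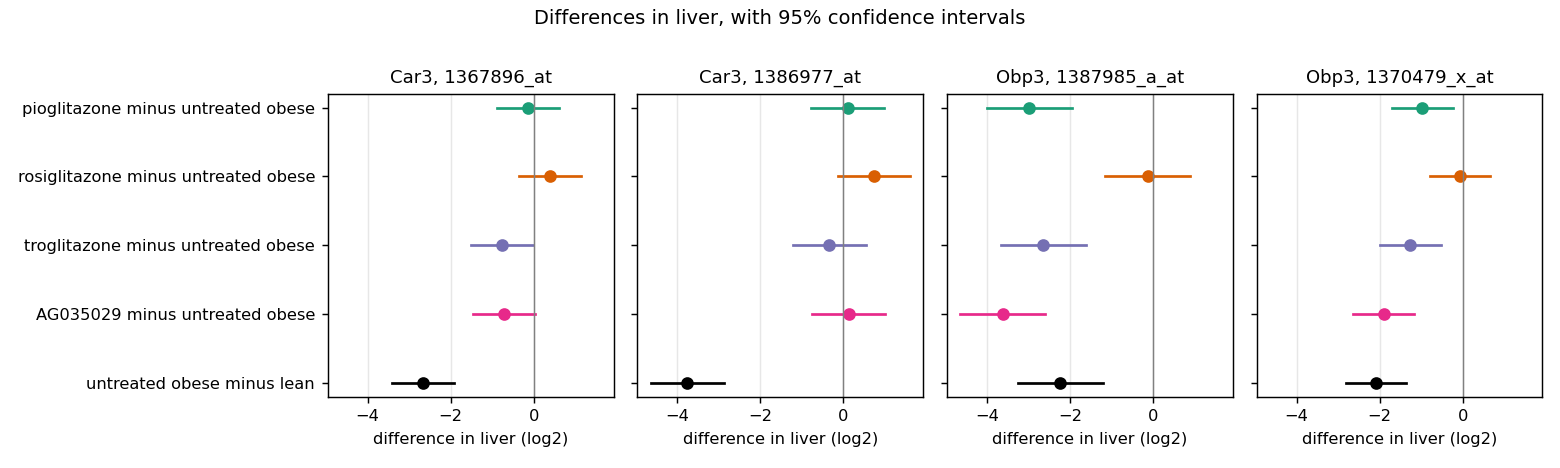
Log2 differences in liver for the 4 probe sets of Car3 and Obp3, with 95% confidence intervals; the ligand groups minus untreated obese rats stand above untreated obese minus lean. The Car3 points for ligands lie between -0.76 and 0.74, whereas the Obp3 points for pioglitazone, troglitazone and AG035029 lie between -3.63 and -0.97, left of the rosiglitazone points at -0.12 and -0.07.

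The probe sets of Rup2 and Mup5 differed among themselves. Rup2 was on the list of alpha-2u globulins and related lipocalins, but that it belongs to either family was not shown here. It was not among the genes whose promoter windows resembled that of Obp3. Rup2 has 4 probe sets on the array. One of them, 1370350_x_at, averaged 3196 ± 655.8 in untreated obese liver and 9856 ± 1988 in lean liver (SD, n = 3 each), and it fell by 1.62 on the log2 scale (limma adjusted p = 0.00047). The other 3 Rup2 probe sets had differences of 0.02, -0.01 and -0.31, none called, at mean signals of 30800 to 45810 in untreated obese liver. These 3 ranked between 21 and 35 of 15866 probe sets by mean liver signal, where the highest signal of any probe set was 106169, and whether their probes were near saturation was not tested. Mup5, on 1388031_x_at, had an untreated obese minus lean difference of -0.66 ± 0.19 (adjusted p = 0.1338) and a difference of -0.30 ± 0.15 between the ligand mean and untreated obese rats (adjusted p = 0.4781). Rup2 1370350_x_at had a ligand mean difference of 0.51 ± 0.18 (adjusted p = 0.2633), with means of 4533 for pioglitazone, 3925 for rosiglitazone, 4061 for troglitazone and 5999 for AG035029. Taking the probe set with the highest mean for each gene, 7 members of that list besides Obp3 were tested in liver, Rup2 and Mup5 among them. None rose or fell with obesity or with the ligand mean (limma), where 0.672% and 0.494% of all tested probe sets were called. Their median difference was 0.13 for obesity and -0.14 for the ligand mean, beside -0.01 over all tested probe sets in each. They include Rbp4, the retinol carrier of plasma, and Orm1 and Ambp, plasma proteins of hepatocytes, at 0.13 ± 0.16, 0.53 ± 0.20 and 0.08 ± 0.15 for obesity. The remaining members were Lcn2, an iron-scavenging lipocalin, at 0.82 ± 0.63, and Obp1f at 0.47 ± 0.40.

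Other male-biased genes of rat liver were set beside Car3 and Obp3. Of 6 tested, 2 fell in untreated obese liver, none rose and 4 were not called, with a median of -0.49, where 0.672% of all tested probe sets were called and 0.294% were called lower. Cyp3a2, a steroid-hydroxylating cytochrome P450, fell by 2.99 ± 0.53 (adjusted p = 0.00491), to 1880 ± 1907 in untreated obese rats against 10820 ± 2017 in lean rats (SD). Cyp3a18, a related P450, fell by 2.27 ± 0.29 (adjusted p = 0.000259), to 2586 ± 1156 against 11740 ± 2837 (SD). Cyp2c11, the chief male-specific P450 of rat liver, had a difference of -0.60 ± 0.39 (adjusted p = 0.6753). For Cyp2c13, Cyp2a2 and the estrogen sulfotransferase Sult1e1 the differences were -0.38, -0.24 and -0.13, none called.

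With the ligand mean, for which 0.494% of all tested probe sets were called, the 6 male-biased genes differed in sign, with 1 rise, 5 not called and a median of -0.20. Cyp3a18 rose by 1.04 ± 0.23 (adjusted p = 0.0476), a call that held under 3 of 9 other settings and in 3 of 15 fits that left out 1 array (untreated obese replicate 2, rosiglitazone replicate 1 or troglitazone replicate 2). It averaged 4579 for pioglitazone, 4239 for rosiglitazone, 7168 for troglitazone and 4427 for AG035029. Cyp3a2 had 1.81 ± 0.42 (adjusted p = 0.0559) while Cyp2c11 had -0.77 ± 0.31 (adjusted p = 0.3549), Cyp2a2 -0.61, Sult1e1 -0.28 and Cyp2c13 -0.12. Cyp2c11 averaged 14280 for pioglitazone, 15090 for rosiglitazone, 11810 for troglitazone and 6712 for AG035029, against 18510 in untreated obese rats.

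Female-biased genes of rat liver were tested for 5 members. Of all tested probe sets in liver, 0.672% were called for obesity and 0.494% for the ligand mean. Sult2a2, a hydroxysteroid sulfotransferase, rose in untreated obese liver by 3.91 ± 0.37 (limma adjusted p = 1.12e-05), to 2358 ± 1113 against 130 ± 33.7 in lean rats (SD). The other 4 were not called, with 0.88 for Cyp2c12, 0.32 for Cyp2c7, 0.43 for Cyp2a1 and 0.54 for the prolactin receptor Prlr on its probe set with the highest mean. A second Prlr probe set, 1369493_at, rose by 0.84 (adjusted p = 0.0203) and was not called without the trend, without untreated obese replicate 1 or 2, or without lean replicate 2 or 3 (adjusted p of at most 0.113). The list had a median of 0.54 for obesity, beside -0.01 over all tested probe sets, and none of its members was called with the ligand mean. Of 10 tested genes of growth hormone receptor signalling and its targets, none was called in untreated obese liver (limma), beside 0.672% of all tested probe sets. Their median was -0.39, beside -0.01 over all tested probe sets. Igfals, which carries IGF1 in plasma, fell with the ligand mean by 1.07 ± 0.22 (adjusted p = 0.0274), which was not called without the trend or without untreated obese replicate 1 or 3 (adjusted p of at most 0.169). The growth hormone receptor Ghr itself had 0.29 ± 0.17 for obesity and -0.30 ± 0.13 for the ligand mean, and Stat5b, which transmits its signal, had -0.58 ± 0.35 and 0.46 ± 0.27, none called.

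**Figure D4:**
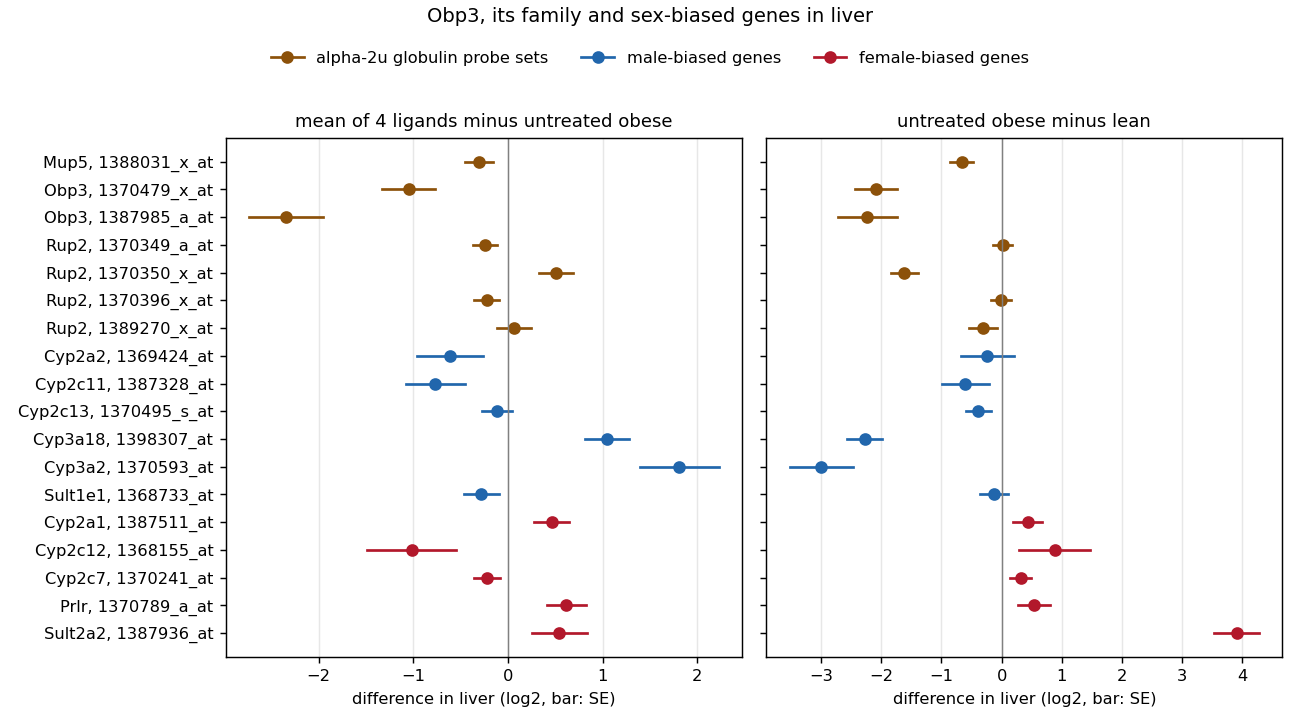
Log2 differences in liver for the probe sets of Obp3, Mup5 and Rup2 and for the sex-biased genes, with standard errors as bars. The legend's alpha-2u globulin probe sets include those of Rup2, for which that family was not shown. The ligand mean minus untreated obese is on the left and untreated obese minus lean on the right. Cyp3a2 and Cyp3a18 lie left of 0 for obesity and right of 0 for the ligand mean, whereas both Obp3 probe sets lie left of 0 in both panels.

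The genes whose liver signal ran most like that of the members were named by Pearson r of log2 values over the 18 liver arrays, among 8047 probe sets with 1 symbol. The 18 points share the split between lean and obese rats, and r is given as a description. Most like Car3 (1367896_at) were Obp3 on 1370479_x_at (r = 0.91), the sulfotransferase Sult1c3 (0.89), the cadherin Cdh17 (0.87), Obp3 on 1387985_a_at (0.87) and the disulfide isomerase Pdia6 (0.82). Most unlike it were Prlr on 1369493_at (-0.87), the retinal dehydrogenase Aldh1a1 (-0.87) and Comtd1 (-0.86). Most like Obp3 (1387985_a_at) were Thumpd1 (0.89), Car3 (0.87), Cdh17 (0.86), Cyp2c11 (0.84) and Cmtm6 (0.82). Most unlike it were Prlr on 1369493_at (-0.85), the IGF carrier Igfbp2 (-0.84) and the galactose mutarotase Galm (-0.82). In untreated obese liver the Sult1c3 signal averaged 1860, against 12750 in lean liver, and that of Cdh17 274, against 2188.

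Car3 and Obp3 also varied together among arrays of 1 group. For deviations from the group means, r between Car3 (1367896_at) and Obp3 was 0.80 on 1387985_a_at and 0.53 on 1370479_x_at. Over the 15 obese arrays alone it was 0.73 and 0.72. For the other Car3 probe set, 1386977_at, r with Obp3 on 1387985_a_at was 0.83 for deviations and 0.51 over the obese arrays. The same measure for Car3 and Cyp2c11 was 0.84 for deviations and 0.79 over the obese arrays. Over the obese arrays alone the genes most like Car3 were Spop (r = 0.83), Cyp2c11 (0.79) and the phospholipase Plcb1 (0.79), and the most unlike was Cyp7a1 (-0.90), the rate-limiting enzyme of bile acid synthesis. Most like Obp3 there were Emc2 (0.83) and Selenok (0.81). Within the pioglitazone group the array with the highest Car3 signal, 7683, also had the highest Obp3 signal on 1387985_a_at, 712.

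In adipose tissue Car3 was high in every group and did not follow obesity. On 1367896_at the untreated obese arrays read 14839, 12356 and 11927, against 12592, 12531 and 10957 in lean rats, and the groups overlapped. The log2 difference was 0.11 ± 0.13 on this probe set and -0.10 ± 0.15 on 1386977_at (limma adjusted p = 0.6856 and 0.7731), and 6.02% of all tested probe sets were called. The 95% intervals were -0.16 to 0.39 and -0.42 to 0.22. With the ligand mean Car3 had 0.17 ± 0.10 and 0.33 ± 0.12 (adjusted p = 0.2731 and 0.0591), neither called, where 20.6% of all tested probe sets were. After quantile normalization the first of these was -0.05.

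The ligands did not differ from each other in adipose Car3 by more than the spread between arrays. On 1386977_at the troglitazone arrays read 17502, 12957 and 18949, against 11727, 11519 and 11626 in untreated obese rats, without overlap, as in 13.4% of all tested probe sets. This was a rise of 0.48 ± 0.15 (adjusted p = 0.0363), where 16.9% of all tested probe sets were called. The call was lost without the filter, without the trend and after quantile normalization, and in the fits without untreated obese replicate 1, 2 or 3 or troglitazone replicate 1 or 3 (adjusted p of 0.0812 to 0.151). On 1367896_at the same comparison gave 0.29 ± 0.13 (adjusted p = 0.1454), and 0.37 with array weights, where it was called (adjusted p = 0.0399). The other 3 ligands had 0.07 to 0.17 on 1367896_at and 0.25 to 0.35 on 1386977_at, none called, where 14.5% of all tested probe sets were called for pioglitazone, 5.56% for rosiglitazone and 15.1% for AG035029. Pioglitazone arrays on 1386977_at lay above all untreated obese arrays, as in 16.1% of all tested probe sets. This difference was called when only the arrays compared were fitted (adjusted p = 0.0315). Between ligands the differences were at most 0.24 in size and none was called, where 0% to 0.042% of all tested probe sets were, with 0.0105% for the pairs of AG035029 with pioglitazone and troglitazone. The F-test among ligands gave adjusted p = 0.8137 and 0.8033, and it called 0.0315% of the probe sets. Ordered by mean on 1367896_at, troglitazone (15883), rosiglitazone (14636), pioglitazone (14369), AG035029 (13750), untreated obese (13041) and lean rats (12027) all overlapped their neighbours. The 7 adipocyte markers summed to between 42830 and 58610 with ligands and to between 37690 and 44820 in untreated obese rats, and their part in the Car3 values was not tested. On AG035029 replicate 1 the 4 measured epididymis markers summed to 6203, against 375 and 367 on the other AG035029 arrays. They summed to at most 491.7 on the adipose arrays of the other groups. This replicate had the lowest Car3 signals of its group, 10996 and 11447, and the part of epididymis in them was not tested.

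Obp3 was near the floor of the array outside liver. In adipose tissue 1387985_a_at read 4 to 45.4 in the ligand groups, 55.5, 61.4 and 44.9 in untreated obese rats, and 87.1, 93.1 and 61 in lean rats. On 1370479_x_at all adipose arrays lay between 2.6 and 82.4. In muscle 1387985_a_at lay between 3.8 and 118 and 1370479_x_at between 17.6 and 208. Neither probe set passed the filter on low signals in adipose tissue or muscle, so neither was tested there in the main setting. Fitted without the filter, 1387985_a_at in adipose tissue had -0.84 ± 0.24 for the ligand mean (limma adjusted p = 0.0314) and -1.11 ± 0.31 for troglitazone (adjusted p = 0.0304). With the filter, 20.6% and 16.9% of tested probe sets were called in these comparisons. Pioglitazone (-0.92), rosiglitazone (-0.51) and AG035029 (-0.82) were not called (adjusted p = 0.0803, 0.5018 and 0.1203). On 1370479_x_at the ligand mean had -0.52 ± 0.38 and troglitazone -0.42 ± 0.48 (adjusted p = 0.4369 and 0.6722), and no ligand was called. The summed signal of hepatocyte markers in the same tissue went the other way. The 9 markers summed to between 3644 and 10160 with ligands and to between 1085 and 1397 in untreated obese rats, with 1 of the 9 averaging above 1000. Their part in the Obp3 values was not tested.

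In muscle Car3 read between 12131 and 44490 on 1367896_at and varied widely among untreated obese arrays. On 1367896_at the pioglitazone arrays read 34102, 24400 and 15842, the rosiglitazone arrays 23582, 31964 and 27198, the troglitazone arrays 28386, 44490 and 29290, and the AG035029 arrays 33105, 25695 and 31475. Untreated obese rats read 12188, 32416 and 12131, against 26318, 28935 and 19206 in lean rats. The arrays of replicates 1 and 3 of untreated obese rats lay below all 15 arrays of the other groups, while replicate 2 lay within the ligand groups. On 1386977_at the same arrays stood apart, with 1347 and 1262 for replicates 1 and 3 and 6545 for replicate 2.

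No Car3 comparison in muscle was called. The ligand mean minus untreated obese was 0.75 ± 0.25 and 1.16 ± 0.36 on the probe sets 1367896_at and 1386977_at (limma adjusted p = 0.4328 and 0.3774), where 0.242% of all tested probe sets were called. Without replicate 2 of untreated obese rats these were 1.22 and 1.93 and were called (adjusted p = 0.0137 and 0.00223), with the remaining arrays unchanged. Troglitazone had 0.98 ± 0.32 and 1.58 ± 0.46 (adjusted p = 0.2221 and 0.1635), and without that array 1.45 and 2.35 (adjusted p = 0.0108 and 0.00126). Untreated obese minus lean was -0.54 ± 0.32 and -0.50 ± 0.46 (adjusted p = 0.9975 for both), where 0.021% were called, and between -1.27 and -0.09 over both probe sets when 1 array was left out. The other ligands had 0.49 to 0.83 on 1367896_at and 0.84 to 1.14 on 1386977_at. Without replicate 2 of untreated obese rats, rosiglitazone (1.85, adjusted p = 0.0367) and AG035029 (1.91, adjusted p = 0.0322) were called on 1386977_at. With all arrays none was called, where 0.231% of all tested probe sets were called for pioglitazone, 0.0315% for rosiglitazone, 0.704% for troglitazone and 0.116% for AG035029. Between ligands no Car3 difference was called, where 0% to 0.021% of all tested probe sets were, and the F-test among ligands gave adjusted p = 0.8275 and 0.8239, with 0% called.

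Markers of fibre type and of fat also differed among muscle arrays. The 9 slow fibre markers summed to 11950, 132800 and 59030 in replicates 1 to 3 of untreated obese rats, whose Car3 signals were 12188, 32416 and 12131. In the same order of replicates the sums were 92440, 100200 and 56730 for pioglitazone and 88430, 55650 and 78960 for rosiglitazone. They were 34260, 150500 and 136800 for troglitazone, 93140, 27880 and 146900 for AG035029, and 73390, 57880 and 37280 in lean rats. Over all muscle arrays this sum ran between 11950 and 150500, and the 10 fast fibre markers ran between 294200 and 543800. The 7 adipocyte markers summed to between 9172 and 34840 in the ligand groups, between 3459 and 6358 in untreated obese rats and between 3671 and 4062 in lean rats. The ligand arrays did not overlap the untreated obese arrays in adipocyte markers, and the lean arrays lay in the range of untreated obese rats. Carbonic anhydrase 3 is abundant in slow fibres and in adipocytes, and the part of either in the Car3 values was not tested.

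**Figure D5:**
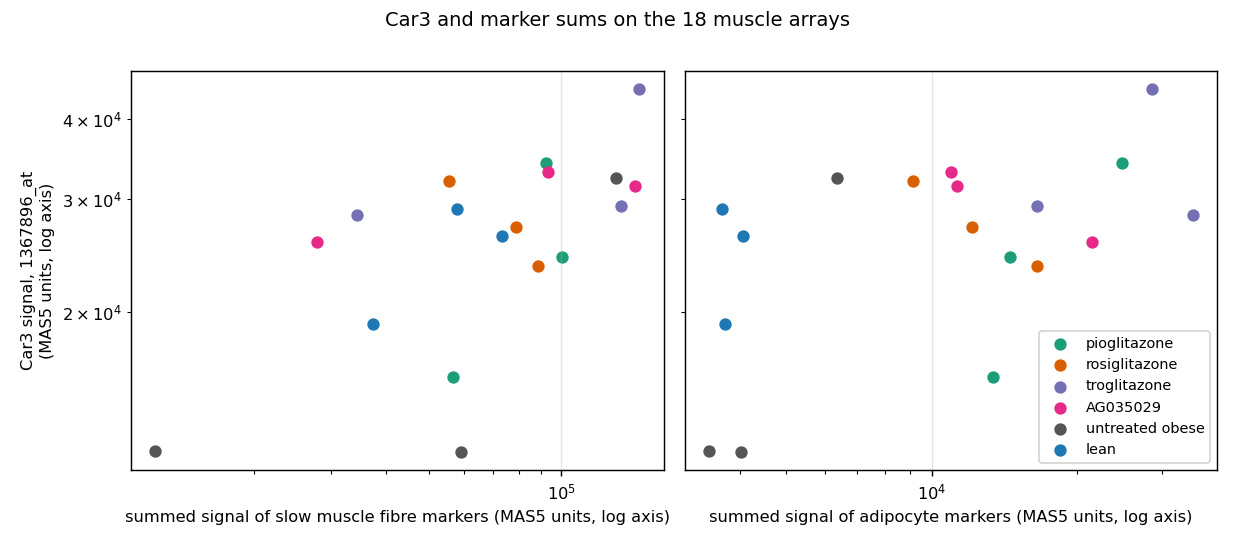
Car3 signal on 1367896_at against the summed signal of slow fibre markers (left) and adipocyte markers (right) on the 18 muscle arrays, on log axes in MAS5 units. The untreated obese arrays with Car3 signals of 12188 and 12131 have slow fibre sums of 11950 and 59030, and the one with 32416 has 132800.

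The tissues were compared where the choice of genes had not used the data. The obesity difference in Car3 was lower in muscle than in adipose tissue by 0.65 ± 0.37 and 0.40 ± 0.53 on the log2 scale (limma interaction, adjusted p = 0.559 and 0.8675), and the ligand mean difference was higher in muscle by 0.58 ± 0.29 and 0.83 ± 0.42 (adjusted p = 0.3271 and 0.3369). None was called, where 0.325% of 10772 tested probe sets were called for obesity and 3.77% for the ligand mean. The Car3 probe sets did not give the same order of tissues. In lean rats 1367896_at averaged 24820 ± 5035 in muscle, 25844 ± 2015 in liver and 12027 ± 926.7 in adipose tissue (SD, n = 3 each). There 1386977_at averaged 3268.1 ± 944.2 in muscle, 7304.5 ± 309 in liver and 12500 ± 1390 in adipose tissue (SD, n = 3 each). These levels rest on the scaling of whole arrays, whose content differs between tissues.

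The other carbonic anhydrases showed no change like that of Car3 in liver. Besides Car3, 11 members are on the array, and 5 were tested in liver, 3 in adipose tissue and 5 in muscle. In liver none was called for obesity or the ligand mean (limma), where 0.672% and 0.494% of all tested probe sets were. For obesity the mitochondrial Car5a had 0.09 ± 0.20, the membrane-bound Car14 0.12 ± 0.20, the cytosolic Car2 -0.41 ± 0.29 and Car7 0.38 ± 0.38, and the related protein Car8, which lacks the enzyme activity, -0.54 ± 0.29. Of the 3 in adipose tissue, 1 fell with obesity, where 6.02% of all tested probe sets were called, and 1 rose and 1 fell with the ligand mean, where 20.6% were. Car5b, the second mitochondrial enzyme, rose there with the ligand mean on both probe sets, by 1.27 ± 0.17 and 0.77 ± 0.14 (adjusted p = 5.07e-05 and 0.00088). On 1377573_at it averaged between 2508 and 3021 in the ligand groups and 1171 ± 187.3 (SD) in untreated obese rats. Car4, a membrane-anchored enzyme of endothelium and other cells, fell there with the ligand mean by 0.74 ± 0.15 (adjusted p = 0.00181). Car2 was lower in untreated obese than in lean adipose tissue by 1.03 ± 0.28 on 1386922_at (adjusted p = 0.0318), a call lost without the filter and in the fits without replicate 2 or 3 of either group (adjusted p of at most 0.128). Its other probe set had -0.47 ± 0.26 (adjusted p = 0.3332). In muscle none of the 5 was called for obesity or the ligand mean, where 0.021% and 0.242% of all tested probe sets were. For the ligand mean Car4 had 1.36 ± 0.34 (adjusted p = 0.1618), Car2 0.16, Car7 -0.05, Car11 -0.40 and Car14 0.06, and a Car5b probe set, 1377573_at, had 1.15 ± 0.34 (adjusted p = 0.3099).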

How the data were processed

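RNA of 54 tissue samples, each pooled from 2 rats, was hybridised to Affymetrix Rat Expression 230A arrays, per the labels' protocols. The deposited values are linear intensities, MAS5 signals per the submitters' processing notes, which give no version. On every array the mean after trimming 2% at either end was 500. Of 15923 probe sets, 57 controls were left out, and of the other 15866, 12783 had 1 gene symbol in the platform annotation, 312 several and 2771 none. Values were used as log2(signal + 20). In each tissue the 9519 probe sets with a mean log2 value above the 40th percentile were tested in 1 limma fit of the tissue's 18 arrays (version 3.58.1, R 4.3.3, eBayes with a mean-variance trend, 12 residual degrees of freedom). Adjusted p-values are Benjamini-Hochberg values over those probe sets, called under 0.05. Differences between muscle and adipose tissue came from 1 fit of their 36 arrays.

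Each result was recomputed with pseudocounts of 5 and 80, without the filter and with it at percentile 60, after quantile normalization or after centring arrays on their medians, without the trend, with array weights, with replicate numbers as a block, on only the arrays compared, and without each array. Same-number arrays of different groups had residuals that correlated at 0.0184 (adipose tissue), 0.00322 (liver) and 0.0117 (muscle) on average, and the numbers were not taken as pairs. The fits were tested on simulated data.

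The genes, lists and tests were chosen with earlier results of these data known. Named genes were all probe sets of Car3 and Obp3, the 5 most and 3 least like each in liver, and up to 4 called members of each other list. All measured members of the carbonic anhydrase list and of the list of alpha-2u globulins and related lipocalins were also eligible. Ghr, Stat5b, uncalled sex-biased genes and second probe sets were named besides. Gene lists are described with the probe set of the highest mean per gene. Sequences and positions are from RefSeq, GRCr8. A promoter of Car3 and the protein sequences were not used here.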

Additional observations from a re-analysis of the deposited data

How the results depend on the processing

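In liver the obesity differences of both genes and the ligand mean of Obp3 kept their direction under all alternatives run. The obesity differences ranged over -2.90 to -2.48 and -4.09 to -3.59 for Car3 (1367896_at, 1386977_at) and -2.43 to -2.03 and -2.36 to -1.87 for Obp3 (1387985_a_at, 1370479_x_at), untreated obese minus lean. The ligand mean ranged over -0.50 to -0.08 and -0.01 to 0.49 for Car3 and -2.52 to -2.16 and -1.17 to -0.91 for Obp3. With 3 arrays a group, differences under about the spread between arrays cannot be shown, and Obp3 signals outside liver lie near background.

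In adipose tissue the Car3 ligand mean on 1367896_at was -0.0452 after quantile normalization and 0.2443 with array weights (limma adjusted p = 0.0428), and 0.1055 to 0.2628 when 1 array was left out (adjusted p of 0.104 to 0.615). On 1386977_at it passed the threshold with the filter at the 60th percentile (0.333, limma adjusted p = 0.0496), median centring (0.418) and array weights (0.369), and ranged over 0.3027 to 0.3739 when 1 array was left out, called without AG035029 replicate 1, rosiglitazone replicate 2 or troglitazone replicate 2. Quantile normalization also turned small differences of 1367896_at to -0.0507 for AG035029, -0.0387 for pioglitazone, -0.0564 for rosiglitazone and -0.0349 for troglitazone against untreated obese rats, to 0.0177 for pioglitazone minus rosiglitazone and to -0.0057 for rosiglitazone minus AG035029. On 1386977_at it gave 0.0075 for pioglitazone minus troglitazone and -0.0013 for troglitazone minus AG035029. Rosiglitazone minus AG035029 there was 0.0371 with median centring and 0.0091 with array weights. In liver, median centring gave 0.0345 for troglitazone minus AG035029 (1367896_at) and 0.0102 for pioglitazone minus AG035029 (1386977_at), and in muscle array weights gave 0.0021 and 0.0206 for pioglitazone minus rosiglitazone. Leaving out 1 array turned 15 small differences, none called. In adipose tissue their ranges on 1367896_at were -0.0481 to 0.2186 for AG035029 minus untreated obese, -0.0724 to 0.1944 for pioglitazone minus AG035029, -0.0874 to 0.0772 for pioglitazone minus rosiglitazone and -0.0526 to 0.2141 for rosiglitazone minus AG035029. On 1386977_at they were -0.0443 to 0.2147 for pioglitazone minus AG035029, -0.0208 to 0.1765 for pioglitazone minus rosiglitazone and -0.143 to 0.1159 for rosiglitazone minus AG035029. In liver they were -0.3145 to 0.2481 for troglitazone minus AG035029 (1367896_at), and -0.5901 to 0.476 and -0.131 to 0.935 for pioglitazone minus AG035029 and minus troglitazone (1386977_at). In muscle, pioglitazone minus rosiglitazone ranged over -0.4768 to 0.0758 and troglitazone minus AG035029 over -0.0531 to 0.2709 on 1367896_at. On 1386977_at the ranges were -0.6019 to 0.0276 and -0.5463 to 0.0832 for pioglitazone minus AG035029 and minus rosiglitazone, and -0.2042 to 0.0854 for rosiglitazone minus AG035029. The cause was not tested.

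In muscle the Car3 ligand mean ranged over 0.5108 to 1.2191 and 0.7524 to 1.9308 when 1 array was left out. As a check of pairing, the replicate block changed no Car3 call. With the block the ligand mean had adjusted p = 0.302 and 0.0679 in adipose tissue and 0.308 and 0.234 in muscle.

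Counts of called probe sets moved with the settings. The obesity count in adipose tissue was 573, and 1106 with array weights, or 319 to 433 when 1 array was left out. The ligand mean count was 1184 to 2255 against 1963 in adipose tissue, 18 to 90 against 47 in liver and 17 to 45 against 23 in muscle, with 29 in liver without the filter and 28 without the trend. For obesity in muscle it was 2, with 0 to 4 when 1 array was left out, 1 without the filter or with median centring, 0 without the trend and 4 with only the arrays compared. The F-test called 3 in adipose tissue (1 with only the arrays compared), 1 in liver (0 without the filter, with array weights or with only the arrays compared) and 0 in muscle (2 with a pseudocount of 5 or the replicate block, 1 without the trend). When 1 array was left out it called 1 to 5, 0 to 7 and 0 to 38.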

Other observations

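Carbonic anhydrase 3 is also known as a target of glutathionylation, and enzymes of glutathione and peroxide metabolism were tested beside Car3. Of 17 tested in adipose tissue, 7 rose and 1 fell with the ligand mean (limma), with a median of 0.02 beside -0.05 over all tested probe sets, of which 9.01% rose and 11.6% fell. After quantile normalization 3 of the 7 rises, Gpx4, Prdx2 and Txn1, were not called (adjusted p = 0.239, 0.144 and 0.116). The largest changes by adjusted p were a fall of the peroxidase Gpx1 by 0.61 ± 0.10 (adjusted p = 0.000183), and rises of the mitochondrial peroxiredoxin Prdx3 by 0.49 ± 0.09 (adjusted p = 0.000702), of catalase (Cat) by 0.67 ± 0.12 (adjusted p = 0.000712) and of the mitochondrial superoxide dismutase Sod2 by 0.52 ± 0.10 (adjusted p = 0.00126). With obesity, where 3.16% of all tested probe sets rose and 2.86% fell, 2 of the 17 rose, Gpx1 by 0.49 and the peroxiredoxin Prdx5 by 0.46 (adjusted p = 0.0214 and 0.0177). Both calls were lost in at least 3 of 6 fits that left out 1 array. Glrx, also on the list, has a second probe set, 1367705_at, that is not the one with the highest mean. It rose with obesity by 1.215 (limma adjusted p = 0.015), a call that held in 3 of 6 fits that left out 1 array. With the ligand mean it fell by 1.15 (adjusted p = 0.00135), called in 15 of 15 such fits. In liver and muscle none of the 17 or 15 tested was called for obesity or the ligand mean, where 0.021% to 0.672% of all tested probe sets were.

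Of 8 tested transporters of bicarbonate, protons and lactate in adipose tissue, 1 fell with obesity, the sodium bicarbonate cotransporter Slc4a4, by 1.26 ± 0.22 (limma adjusted p = 0.00217), to a mean of 174.2 in untreated obese rats against 452 in lean rats, beside 2.86% of all tested probe sets that fell. None of the 6 in liver or 7 in muscle was called for obesity or the ligand mean, where 0.021% to 0.672% of all tested probe sets were. Of the growth hormone list, 8 genes were tested in adipose tissue. Igf1 fell there with obesity by 0.55 ± 0.16 (adjusted p = 0.0455), beside the 2.86% of all tested probe sets that fell. With the ligand mean Igfbp3 and Serpina3n fell there, with log2 differences of -0.81 ± 0.16 and -1.88 ± 0.42 (adjusted p = 0.00182 and 0.0038), where 11.6% of all tested probe sets fell. The Igf1 call on 1388469_at was lost without the filter (adjusted p = 0.0827), with median centring (0.0771), without the trend (0.0622) and in 5 of 6 fits that left out 1 array. On the other Igf1 probe set, 1370333_a_at, the fall was 0.60 (limma adjusted p = 0.0177). That call held under 9 of 9 other settings and in 3 of 6 fits that left out 1 array. Steroid and thyroid hormone receptors (4 tested in adipose tissue and 3 in each of the other tissues) included none that was called for obesity or the ligand mean. Of all tested probe sets, 6.02% and 20.6% were called in these comparisons in adipose tissue and 0.021% to 0.672% in liver and muscle. On the list of alpha-2u globulins and related lipocalins, 2 of 4 tested members rose in adipose tissue with the ligand mean, where 9.01% of all tested probe sets rose. They were Rbp4, by 0.41 ± 0.12, and Orm1, by 0.56 ± 0.18 (limma adjusted p = 0.0184 and 0.0332). Rbp4 was not called after quantile normalization (adjusted p = 0.0655) or without untreated obese replicate 1 or 2, and Orm1 was not called without the filter (0.0633), with array weights (0.0727) or without untreated obese replicate 1 or 3.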
